A study of Mus musculus with 12 samples.

Results

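The 9 genes described here encode integrin subunits other than Itgae, the αE chain known as CD103: the α chains Itga4, Itga6, Itgal and Itgav and the β chains Itgb1, Itgb2, Itgb3, Itgb7 and Itgb8. They were listed by name, with earlier results of these data known, and are 9 of 22180 genes that had a probe set with exactly 1 gene symbol. Testing was limited to genes whose mean was 5 or more, on the log2 scale, in 1 or more groups, which held for 8 of the 9 and for 9862 genes in all. The exception was Itgb8.

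Mouse CD8 T cells from spleen were measured on 12 Affymetrix arrays, 3 in each of 4 groups. Tc17 STAT3-/- and Tc17 WT cells were activated in the presence of IL-6 and TGFb, and Tc1 STAT3-/- and Tc1 WT cells in the presence of IL-12. STAT3-/- stands for Cd4cre+ STAT3fl/fl, in which a Cre recombinase driven by Cd4 deletes the floxed gene in the T lineage, and age and strain were not given in the sources used here. All 4 groups started as sorted naive cells, with both genotypes mixed in equal parts, and received anti-CD3 (1 µg/ml) and anti-CD28 (3 µg/ml). Polarising cytokines were present for 3 days and IL-2 for 1 more day, after which allelic markers served to sort the genotypes apart, so each pair of genotypes had shared a culture. Each group has a biological array 1, a biological array 2 and a technical array, and 3 values given together are always in that order. The technical array carries replicate number 2 and was averaged with biological array 2, leaving 2 samples per group. The labels do not name animals or cultures behind the replicates, so p-values measure no more than how far these samples scatter, some of which may be technical.

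Integrins are surface receptors made of 1 α and 1 β chain, and each pair binds its own ligands on other cells or in the extracellular matrix. In T cells β1 pairs with α4 and α6, β7 pairs with α4 and αE, αL pairs with β2, and αv pairs with β1, β3 and β8 among others. Signals from the T cell receptor and chemokine receptors switch integrins from a resting to an adhesive form through the small GTPase Rap1, talin and kindlin. Integrins of the αv family also bind latent TGF-beta and can release its active form.

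Stat3 itself was at 7.80, 7.93 and 7.59 in Tc17 STAT3-/- cells, against 10.72, 10.69 and 10.38 in Tc17 WT cells. In Tc1 STAT3-/- cells it was at 7.67, 7.16 and 6.99, against 10.13, 10.11 and 9.77 in Tc1 WT cells. Where in the gene its probes lie is not given in the sources used here, so the signal left in STAT3-/- cells is not read. CD8 T cell genes (Cd8a, Cd8b1, Cd3d, Cd3e, Cd3g, Cd2 and Cd28) were all measured above the filter, and their mean level lay between 10.13 and 10.33 on every array. The Tc17 WT technical array stood apart from the others, with a median correlation of 0.933 with the other arrays against 0.961 and 0.962 for the other Tc17 WT arrays and at least 0.977 for the arrays of the other groups. Among genes tested, the median change was 0.11 for STAT3-/- over WT in Tc17 and -0.10 for Tc17 over Tc1 in WT. Of the genes called in these comparisons, 72.7% and 28.0% were higher. Other scalings moved these shares to between 49.4% and 82.4% for the genotypes in Tc17, and to between 18.5% and 50.5% for Tc17 over Tc1 in WT, so each change below is to be read against the median.

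Tc17 WT cells had the lowest signal for 6 of the 8 tested integrin genes, Itga4, Itgb1, Itga6, Itgal, Itgb2 and Itgb3. For these 6, all 3 Tc17 WT arrays lay below each of the other 9 arrays, as they did for 18.7% of the 9862 genes tested, a pattern singled out after the values were seen. Counted without the Tc17 WT technical array the same 6 showed it (20.6% of genes), and on biological arrays alone too (27.5%). Itgav and Itgb7, the other tested members, had their highest levels in the Tc17 groups. The comparison of genotypes in Tc17 and that of Tc17 with Tc1 in WT both contain the Tc17 WT samples, so their opposite signs for the 6 genes are not separate pieces of evidence.

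**Figure D1:**
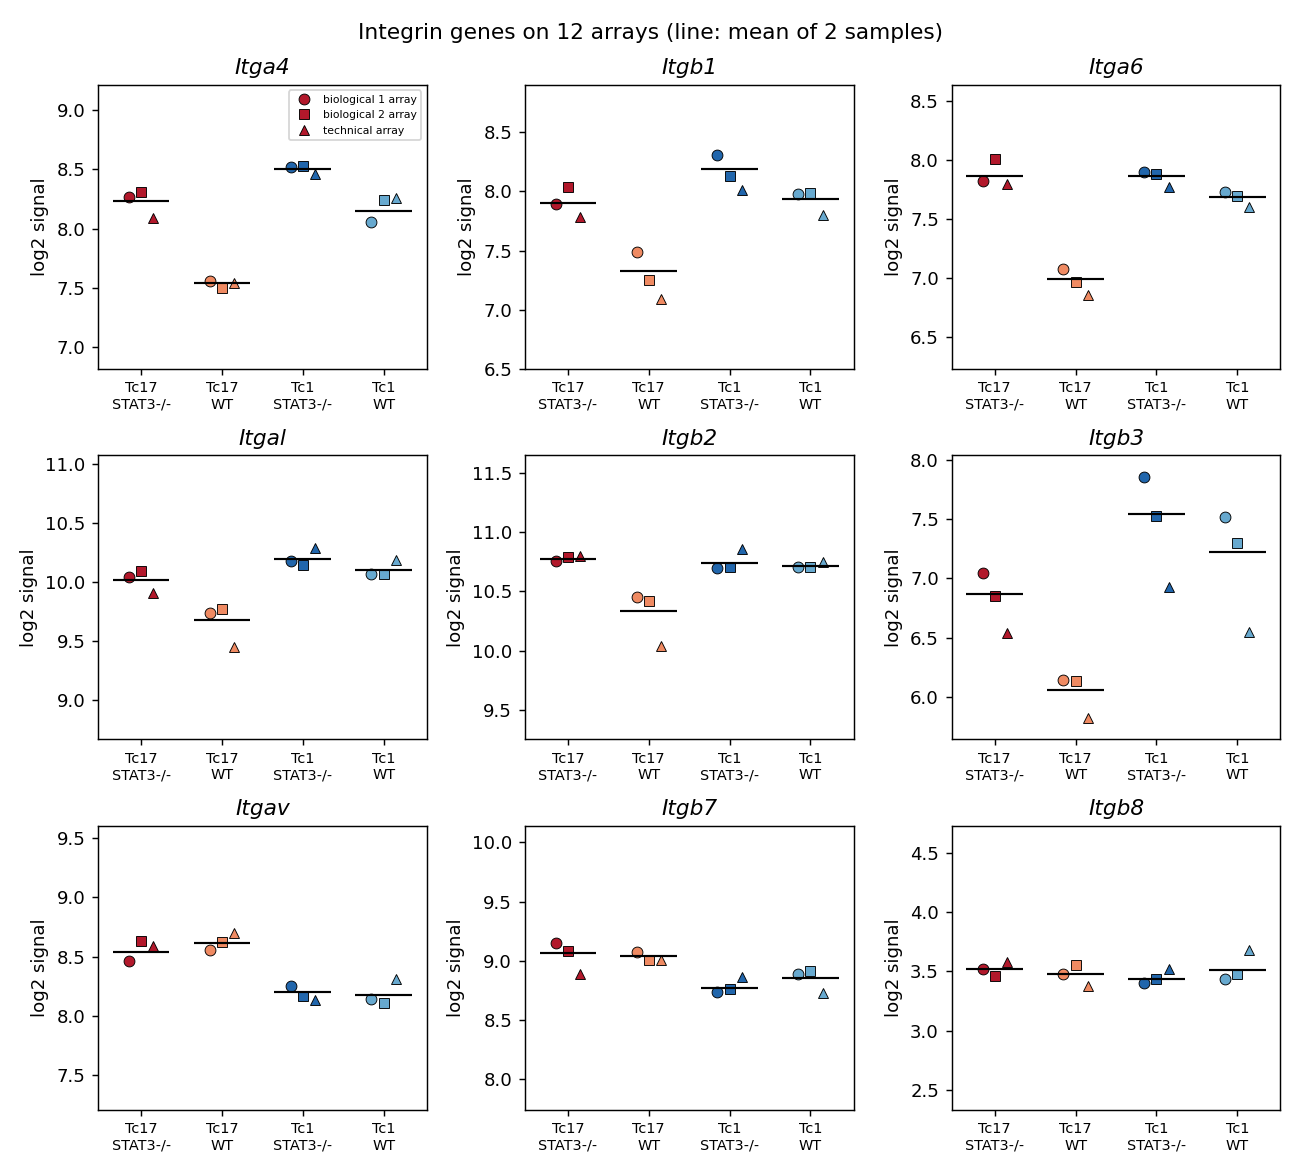
Log2 signal (vertical axis) of the 9 integrin genes on each of the 12 arrays, by group (horizontal axis). Circles, squares and triangles are biological array 1, biological array 2 and the technical array, and lines are means of the 2 samples per group. For Itga4, Itgb1, Itga6, Itgal, Itgb2 and Itgb3 the Tc17 WT points sit below all others, Itgav and Itgb7 are highest in the Tc17 groups, and Itgb8 stays between 3.38 and 3.68.

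For 3 of the genes the 250 bases before the annotated start are shown, since the results contrast Itga4 and Itgb1, which were lowest in Tc17 WT cells, with Itgav, which was not. They come from RefSeq (GRCm38.p6, plus strand) at chr2:79255176-79255425 for Itga4, chr8:128685404-128685653 for Itgb1 and chr2:83724147-83724396 for Itgav. Capitals mark matches, on either strand, to CAGAC, the core of a SMAD site, or TGTGGT, a RUNX core. SMAD proteins carry TGF-beta signals and RUNX factors shape CD8 T cells.
Itga4: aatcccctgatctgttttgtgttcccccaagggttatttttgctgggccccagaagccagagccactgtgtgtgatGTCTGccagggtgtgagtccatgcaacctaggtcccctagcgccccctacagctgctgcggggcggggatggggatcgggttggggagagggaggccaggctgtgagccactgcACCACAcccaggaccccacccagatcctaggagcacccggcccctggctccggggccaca
Itgb1: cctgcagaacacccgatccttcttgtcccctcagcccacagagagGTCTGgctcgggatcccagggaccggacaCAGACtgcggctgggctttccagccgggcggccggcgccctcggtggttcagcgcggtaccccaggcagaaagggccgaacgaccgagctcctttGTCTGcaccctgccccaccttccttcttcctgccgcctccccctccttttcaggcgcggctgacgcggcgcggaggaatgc
Itgav: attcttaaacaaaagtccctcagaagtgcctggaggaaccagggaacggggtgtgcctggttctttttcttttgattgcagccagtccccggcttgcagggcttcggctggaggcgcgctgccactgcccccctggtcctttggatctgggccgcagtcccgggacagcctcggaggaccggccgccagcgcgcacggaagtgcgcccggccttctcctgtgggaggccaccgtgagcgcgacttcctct
An entry was present for 5 of the 9 genes, these 3 together with Itgb7 and Itgb8. The palindrome TTCNNNGAA, to which STAT proteins bind, matched 0 times in the 5 stretches and in 7.02% of 32851 promoter stretches of the same length. CAGAC matched 1 time in Itga4, 3 times in Itgb1 and 0 times in Itgav, with 2 matches in Itgb7, 1 in Itgb8 and at least 1 in 42.2% of all stretches. TGTGGT matched 1 time in Itga4 and 0 times in the other 4, and 14% of all stretches held it. Matches to such short letters are a description and not evidence of binding.

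Without STAT3, Tc17 cells had more RNA of the chains that pair as α4β1, α6β1 and αLβ2, and of β3. The comparison is of cells from the Tc17 condition with and without STAT3, which differed beyond integrins. Il17a averaged 4.56 in Tc17 STAT3-/- and 8.33 in Tc17 WT cells, and Il17f 4.92 and 9.35. Ifng averaged 7.07 and 4.72, and Tbx21 6.80 and 6.17. The filter fixed the direction for Il17a, Il17f and Ifng, but not for Tbx21. A direct part of STAT3 and a change of cell state cannot be told apart here. Of the 8 tested genes 6 were higher and 0 were lower in Tc17 STAT3-/- cells, where 18.2% of all genes tested were higher and 6.83% lower (25.1% in either direction). The median change of the 8 was 0.51, against 0.11 over all genes tested. Without either Tc17 STAT3-/- sample 2 genes were still called (Itga4 and Itga6), without Tc17 WT sample 2 there were 3 (these and Itgb2), and without Tc17 WT sample 1 Itgb3 was lost. With no filter on dim genes Itgal (adjusted p = 0.0681) and Itgb3 (adjusted p = 0.0635) were not called. In bulk RNA, more cells that carry a transcript and more of it per cell cannot be told apart.

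Itga4 encodes α4, which pairs with β1 to bind VCAM-1 and fibronectin and with β7 to bind MAdCAM-1 in gut vessels. It was at 8.27, 8.31 and 8.09 in Tc17 STAT3-/- cells, against 7.56, 7.50 and 7.54 in Tc17 WT cells. The genotypes did not overlap, and the difference was larger than the spread within either group. Group means were 8.23 ± 0.05 in Tc17 STAT3-/- cells and 7.54 ± 0.03 in Tc17 WT cells (SD, n = 2), a log2 change of 0.70 ± 0.10 (SE), or 1.62-fold (limma, Benjamini-Hochberg adjusted p = 0.0014). In Tc1 the arrays read 8.52, 8.53 and 8.46 in STAT3-/- cells, against 8.06, 8.24 and 8.26 in WT cells. Tc1 STAT3-/- cells thus had the highest level, Tc17 STAT3-/- and Tc1 WT cells overlapped below them, and Tc17 WT cells were lowest without overlap. Against Tc1 WT cells, Tc17 WT cells were lower by a log2 change of -0.61 ± 0.10 (adjusted p = 0.0025).

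Itgb1 encodes β1, the chain shared by most receptors for matrix. It was at 7.89, 8.04 and 7.78 in Tc17 STAT3-/- cells, against 7.49, 7.25 and 7.09 in Tc17 WT cells. All 3 Tc17 STAT3-/- arrays exceeded all 3 Tc17 WT arrays, which were spread more widely. The change was 0.57 ± 0.13 (1.49-fold, limma adjusted p = 0.0119). Tc1 STAT3-/- cells were at 8.31, 8.13 and 8.01, against 7.98, 7.99 and 7.80 in Tc1 WT cells. Here the genotypes again did not overlap, by 0.02 at the closest, while Tc17 STAT3-/- and Tc1 WT cells overlapped. Tc17 WT cells were below Tc1 WT cells by a log2 change of -0.61 ± 0.13 (adjusted p = 0.0091).

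Itga6 encodes α6, which with β1 or β4 forms laminin receptors. It was at 7.82, 8.01 and 7.80 in Tc17 STAT3-/- cells, against 7.08, 6.97 and 6.86 in Tc17 WT cells. This was the widest separation of the genotypes in Tc17 among the members, 0.86 ± 0.10 or 1.82-fold (limma adjusted p = 4.3e-04). Tc1 STAT3-/- cells were at 7.90, 7.88 and 7.77, overlapping Tc17 STAT3-/- cells, and Tc1 WT cells were at 7.73, 7.70 and 7.60. The order was therefore Tc1 and Tc17 STAT3-/- cells together, then Tc1 WT cells, then Tc17 WT cells, with no overlap between the last 2 steps. Tc17 over Tc1 was -0.69 ± 0.10 in WT cells (adjusted p = 0.0014) and -0.00 in STAT3-/- cells (95% interval -0.22 to 0.21, adjusted p = 0.9970).

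Itgb7 encodes β7, the partner of both α4 and αE. It was at 9.15, 9.08 and 8.89 in Tc17 STAT3-/- cells, against 9.07, 9.01 and 9.01 in Tc17 WT cells. The genotypes overlapped, and the change was 0.03 with a 95% interval of -0.19 to 0.24 (adjusted p = 0.8448). In Tc1 the levels were 8.74, 8.76 and 8.86 in STAT3-/- cells and 8.89, 8.91 and 8.73 in WT cells, again overlapping. Tc17 arrays lay above Tc1 arrays within each genotype, yet neither difference passed the test, with log2 changes of 0.19 in WT cells (adjusted p = 0.1725) and 0.30 in STAT3-/- cells (adjusted p = 0.2276). Itgae, the chain that pairs with β7 as CD103, moved far more. It was at 7.50, 7.55 and 8.31 in Tc17 STAT3-/- cells and 3.74, 3.96 and 3.86 in Tc1 STAT3-/- cells, and in Tc17 WT cells at 7.51, 7.54 and 8.31, against 3.43, 4.12 and 3.69 in Tc1 WT cells.

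αL and β2 form LFA-1, the receptor for ICAM-1 that holds a T cell to its target and to the vessel wall. Itgal was at 10.04, 10.09 and 9.91 in Tc17 STAT3-/- cells, against 9.74, 9.77 and 9.45 in Tc17 WT cells. Itgb2 was at 10.76, 10.79 and 10.80 in Tc17 STAT3-/- cells, against 10.45, 10.42 and 10.04 in Tc17 WT cells. For both genes the genotypes did not overlap, and the technical array was the lowest of the Tc17 WT arrays. The changes were 0.35 ± 0.09 for Itgal (1.27-fold, limma adjusted p = 0.0229) and 0.44 ± 0.10 for Itgb2 (1.36-fold, limma adjusted p = 0.0127). Itgal was no longer called when arrays were centred on the median of tested genes (0.23, adjusted p = 0.1020) or normalized by cyclic loess (0.23, adjusted p = 0.0741).

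In Tc1, Itgal was at 10.18, 10.14 and 10.29 in STAT3-/- cells and 10.07, 10.07 and 10.19 in WT cells. Itgb2 was at 10.70, 10.71 and 10.86 in Tc1 STAT3-/- cells and 10.71, 10.71 and 10.75 in Tc1 WT cells. The 2 genotypes overlapped for both genes, and for Itgal Tc17 STAT3-/- and Tc1 WT cells also met. For Itgb2 the Tc17 STAT3-/- arrays lay just above those of Tc1 WT cells and among those of Tc1 STAT3-/- cells. Tc17 WT cells were below Tc1 WT cells by log2 changes of -0.42 ± 0.09 for Itgal (adjusted p = 0.0098) and -0.38 ± 0.10 for Itgb2 (adjusted p = 0.0235), and the second was lost on centring on the tested median (-0.26, adjusted p = 0.0715).

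Itgav encodes αv, the shared α chain of receptors for vitronectin and latent TGF-beta. It was at 8.46, 8.63 and 8.59 in Tc17 STAT3-/- cells, against 8.56, 8.62 and 8.70 in Tc17 WT cells. The genotypes overlapped, with a change of -0.08 and a 95% interval of -0.30 to 0.14 (adjusted p = 0.5799). Tc1 levels were 8.25, 8.17 and 8.13 in STAT3-/- cells and 8.14, 8.11 and 8.31 in WT cells, with overlap too. Each Tc17 array exceeded each Tc1 array, and Itgav was the one member called higher in Tc17 than in Tc1 cells, by 0.44 ± 0.10 in WT (1.36-fold, limma adjusted p = 0.0119). In STAT3-/- cells the change was 0.33 ± 0.10 (adjusted p = 0.1786). A second Itgav probe set was dim, at 2.32 to 2.98 on all arrays.

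Itgb3 encodes β3, known from platelets and also found on activated T cells. It was at 7.05, 6.85 and 6.54 in Tc17 STAT3-/- cells, against 6.14, 6.13 and 5.82 in Tc17 WT cells. Tc1 STAT3-/- cells were at 7.86, 7.53 and 6.93, against 7.52, 7.30 and 6.55 in Tc1 WT cells. The technical array was lowest in all 4 groups, by 0.31 to 0.75 below the nearer biological array, so Itgb3 had the widest within-group spread, and all groups but Tc17 WT overlapped. The genotype change in Tc17 was 0.82 ± 0.24 (1.76-fold, limma adjusted p = 0.0371), and without the Tc17 WT technical array it was 0.74 and no longer called (adjusted p = 0.0557). It was not called after quantile normalization (0.70, adjusted p = 0.0519) or cyclic loess (0.66, adjusted p = 0.0656) either. Within each set of arrays the difference was 0.91, 0.72 and 0.72. Tc17 over Tc1 in WT was the largest change of any member in size, at -1.17 ± 0.24 (limma adjusted p = 0.0089).

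Platelets carry much β3, so their genes were read beside it. Of 6 platelet markers on the array, Gp9 alone was above the filter, at 4.49 to 4.94 in Tc17 STAT3-/- cells and 5.04 to 5.30 in Tc17 WT cells, and it was not called (-0.42, adjusted p = 0.0798). Gp9 passed through Tc17 WT cells alone, which fixed the direction of this difference. Pf4 stayed between 2.18 and 2.81 and Ppbp between 2.50 and 3.12 over all arrays. The mean of the 6 markers was 3.58 to 3.77 in Tc17 STAT3-/- cells and 3.67 to 3.92 in Tc17 WT cells, against 3.72 to 3.79 in Tc1 STAT3-/- cells and 3.55 to 3.73 in Tc1 WT cells. The ranges of this mean overlapped between the groups in which Itgb3 differed. The part of platelet RNA in the Itgb3 result was not tested.

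Itgb8, which encodes the β8 partner of αv in TGF-beta activation, was near background and not tested. It was at 3.52, 3.46 and 3.58 in Tc17 STAT3-/- cells, 3.48, 3.55 and 3.38 in Tc17 WT cells, 3.40, 3.44 and 3.52 in Tc1 STAT3-/- cells and 3.44, 3.48 and 3.68 in Tc1 WT cells. All 4 groups overlapped. RMA compresses differences at such levels.

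For the 6 called genes all Tc17 STAT3-/- arrays lay above all Tc17 WT arrays. A higher value within biological arrays 1, biological arrays 2 and technical arrays follows from this and is no added support. The differences were 0.71, 0.81 and 0.55 for Itga4, and 0.40, 0.79 and 0.70 for Itgb1. For Itga6 they were 0.74, 1.03 and 0.94. Itgal showed 0.30, 0.32 and 0.46, and Itgb2 showed 0.32, 0.37 and 0.75, in both cases with the technical set giving the widest gap. Itgav and Itgb7 changed sign between sets, within -0.12 and 0.08. Over all genes tested, arrays of the 2 genotypes did not overlap in Tc17 for 44.3%, and among the 8 members for 6.

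**Figure D2:**
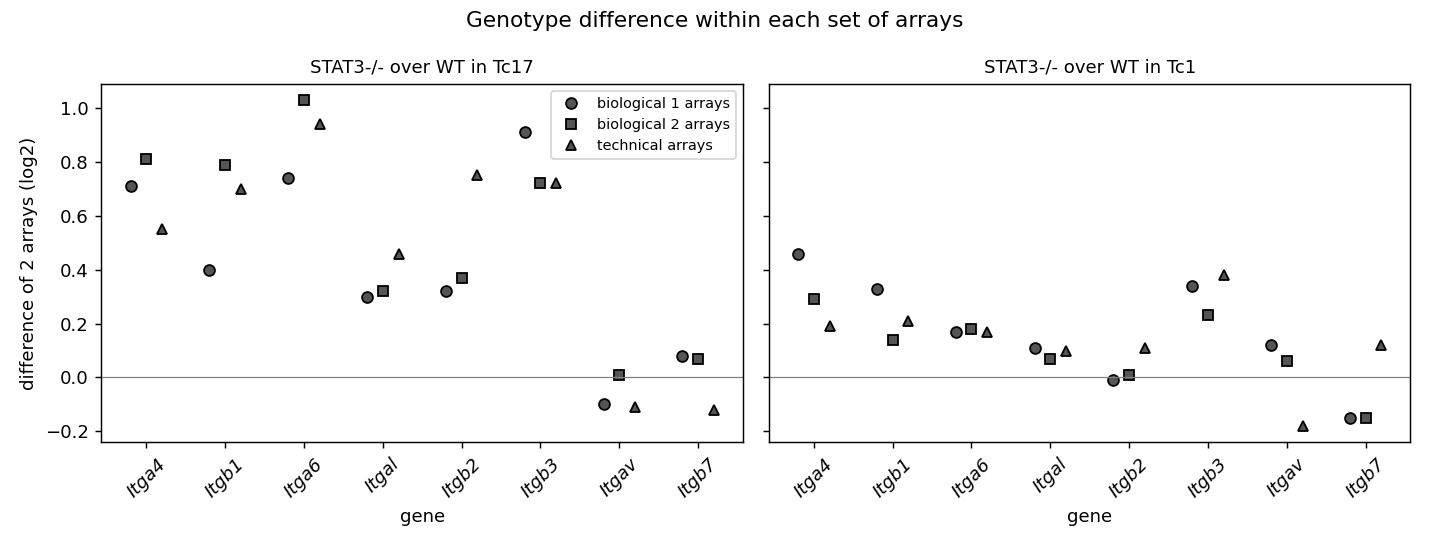
Difference in log2 signal, STAT3-/- minus WT (vertical axis), of the 8 tested integrin genes (horizontal axis) within each set of arrays, in Tc17 (left) and Tc1 (right). In Tc17 all 3 points of Itga4, Itgb1, Itga6, Itgal, Itgb2 and Itgb3 lie between 0.30 and 1.03, while those of Itgav and Itgb7 lie between -0.12 and 0.08.

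In Tc1 cells, where the same genotypes were compared under IL-12, 0 of the 8 genes were called (limma, 0.0608% of all genes tested, with 0.0203% higher and 0.0406% lower), and 1 had an unadjusted p under 0.05. That one was Itga4, with a change of 0.35 ± 0.10 (limma adjusted p = 0.8103). Itgb3 changed by 0.32 and Itgb1 by 0.25, with 95% intervals of -0.22 to 0.87 and -0.04 to 0.54. Itga6 differed by 0.17, with an interval of -0.04 to 0.39. Differences for Itgal, Itgb2, Itgav and Itgb7 lay between -0.08 and 0.10. The median of the 8 was 0.14, against 0.01 over all genes tested. Itga4, Itgb1 and Itga6 did not overlap between the genotypes, 3 of 8, where 7.79% of all genes did not. The STAT3-/- arrays of these 3 genes were the higher ones, so their differences within sets are positive by construction. They were 0.46, 0.29 and 0.19 for Itga4, 0.33, 0.14 and 0.21 for Itgb1 and 0.17, 0.18 and 0.17 for Itga6.

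Whether the genotype effect differed between the culture conditions was tested directly. Itga6 alone of the 8 was called, with an effect in Tc17 larger than that in Tc1 by 0.69 ± 0.14 (limma adjusted p = 0.0200), where 6.85% of all genes tested were called 4.48% in this direction and 2.37% in the other. Leaving out Tc17 STAT3-/- sample 1 or 2 ended this call (adjusted p = 0.0732 and 0.1039), as did leaving out either Tc1 WT sample (0.0860 and 0.0557) or Tc1 STAT3-/- sample 2 (0.0648), and dropping the filter on dim genes (0.0542). Without Tc17 WT sample 1 Itgb2 was called as well (0.52, adjusted p = 0.0289). Itgb2 (0.41, adjusted p = 0.1129) and Itga4 (0.34, adjusted p = 0.1604) had an unadjusted p under 0.05 and did not pass. Itgb3 (0.49), Itgb1 (0.32) and Itgal (0.25) had intervals that include 0. For genes other than Itga6, a call in Tc17 and none in Tc1 therefore does not show that the 2 effects differ.

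In WT cells the Tc17 condition went with less integrin RNA for 6 of the 8 genes and more for Itgav, against Tc1. Over all genes tested 18% were lower and 7.01% higher, 25% in either direction. The median of the 8 was -0.52, against -0.10 over all genes. Arrays of Tc17 WT and Tc1 WT cells did not overlap for any of the 8, and for 40.8% of all genes. Without Tc1 WT sample 1, 3 of the 8 were still called, Itga4, Itga6 and Itgal. Without Tc1 WT sample 2 Itgal and Itgb2 were lost, without Tc17 WT sample 2 Itgb2 and Itgb3, and with no filter on dim genes Itgb2 (adjusted p = 0.0628).

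In STAT3-/- cells the same contrast called 0 of the 8 genes (limma), with 2.07% of all genes called, 1.05% higher and 1.01% lower. Of the 8, 5 had an unadjusted p under 0.05. Itgb3 was -0.67 with a 95% interval of -1.22 to -0.13 (adjusted p = 0.3114), and it was called when the technical arrays were left out (-0.75, adjusted p = 0.0103) or the array set was a block (-0.63, adjusted p = 0.0213). Itgb1 was -0.29, with an interval that reached -0.00, and Itga4 was -0.27, with an interval of -0.49 to -0.05. Itgal was -0.18, Itgb2 was 0.03 and Itga6 was close to 0. Without overlap between Tc17 STAT3-/- and Tc1 STAT3-/- arrays were Itga4 and Itgal, lower in Tc17, and Itgav and Itgb7, higher, 4 of 8 where 16.4% of all genes did not overlap.

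**Figure D3:**
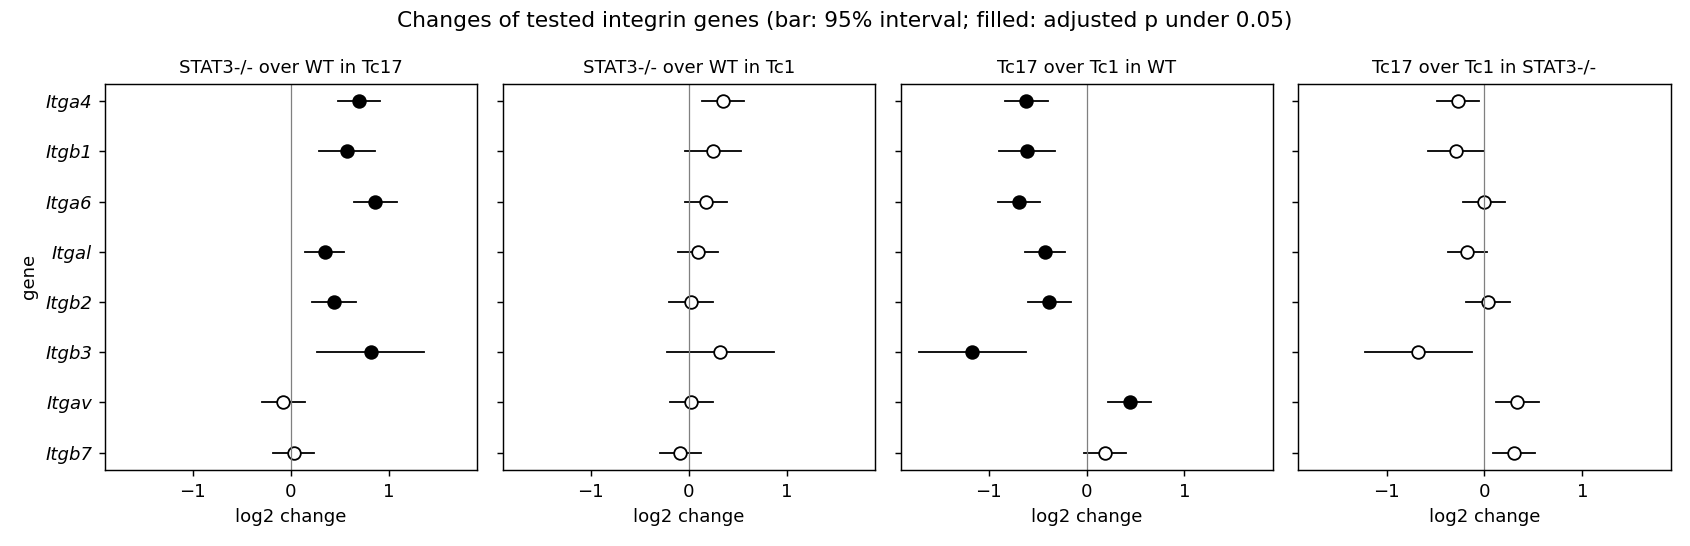
Log2 change (horizontal axis) of the 8 tested integrin genes (vertical axis) in 4 comparisons, with 95% intervals as bars and filled points for an adjusted p under 0.05. Filled points are 6 to the right of 0 for STAT3-/- over WT in Tc17, and 6 to the left and 1 (Itgav) to the right for Tc17 over Tc1 in WT, with none in the other panels.

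Across the 4 group means Itgb3 spanned 1.49, the one member to span at least 1. Among 457 genes that also spanned at least 1, those most like it over the 8 samples were Sp4 (Pearson r = 0.99), Stc1 (0.97) and Gbp8 (0.97). Sp4 is a transcription factor of the Sp family, Stc1 encodes the secreted hormone stanniocalcin and Gbp8 a guanylate-binding protein. These correlations describe 8 samples that share culture and array sets.

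Of the other integrin chains, 6 of 19 listed were tested, Itgae among them. In Tc17 STAT3-/- over Tc17 WT cells 0 were higher and 3 lower, opposite to the members, where 18.2% of all genes tested were higher and 6.83% lower. The median of the list was -0.20, against 0.11 over all genes. In Tc17 over Tc1 in WT 5 were higher and 1 lower, where 7.01% and 18% of all genes were. That median was 0.47, against -0.10. The filter fixed some of these directions, as given next. Itga3 and Itgb5 passed the filter through Tc17 WT cells alone, which fixed their direction wherever Tc17 WT cells are compared, so their values are a description. Itga3, an α partner of β1 that binds laminin, was at 4.62, 4.54 and 4.83 in Tc17 STAT3-/- cells, against 6.95, 6.71 and 6.26 in Tc17 WT cells, and at 4.49 to 4.84 in both Tc1 groups. Itgb5, a partner of αv, averaged 4.77 in Tc17 STAT3-/- cells and 5.17 in Tc17 WT cells. Itga7, another laminin-binding α chain, was above the filter in all 4 groups and changed by -0.83 in Tc17 STAT3-/- over Tc17 WT cells (limma adjusted p = 0.0042). Itga5, the fibronectin-binding partner of β1, was also above it in all 4 and was not called there (0.05, adjusted p = 0.7664). In WT cells both were higher in Tc17 than in Tc1, Itga7 by 0.51 (adjusted p = 0.0325, called in 16 of 22 alternatives) and Itga5 by 0.40 (adjusted p = 0.0237). Itgae passed the filter through the Tc17 groups and Itga2, which with β1 binds collagen, through the Tc1 groups, so their directions between Tc17 and Tc1 were fixed too. Itga2 averaged 4.34 in Tc17 WT cells and 5.07 in Tc1 WT cells.

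Genes that switch integrins on or tie them to the cytoskeleton were listed as 36, of which 28 were tested. In Tc17 STAT3-/- over Tc17 WT cells 10 were higher and 2 lower, where 18.2% of all genes tested were higher and 6.83% lower. The median of the list was 0.17, against 0.11 over all genes. Rasgrp2 encodes CalDAG-GEFI, which loads Rap1 with GTP, and it was at 7.36, 7.25 and 7.35 in Tc17 STAT3-/- cells, against 5.60, 5.49 and 5.37 in Tc17 WT cells. Like the 6 integrin genes and 18.7% of all genes tested, it had all Tc17 WT arrays below every other array. It was at 7.34 to 7.95 in Tc1 STAT3-/- cells and 7.39 to 7.63 in Tc1 WT cells. It rose by 1.81 ± 0.10 (limma adjusted p = 9.0e-06), more in Tc17 than in Tc1 (1.76, adjusted p = 2.6e-04). Rasgrp1, a Ras activator downstream of the T cell receptor, rose by 1.08 ± 0.09 (adjusted p = 6.9e-05). Vcl, the cytoskeletal linker vinculin (0.53, adjusted p = 0.0032), and Arap2, a GTPase-activating protein (0.57, adjusted p = 0.0139), were also higher. Cytip, which holds back LFA-1 adhesion, and Flna, the actin crosslinker filamin A, were lower, by -0.44 and -0.36. Talin (Tln1), kindlin-3 (Fermt3) and Rap1b were not called in Tc17. Without either Tc17 STAT3-/- sample 3 genes of the list were called higher, and 0 lower, and without Tc17 WT sample 2 there were 6 higher and 1 lower. On centring on the tested median, quantile or loess normalization 6 were higher and 2 lower. Over the 9862 genes tested, these scalings called 1085, 1201 and 1065 higher and 1110, 1016 and 1009 lower. As deposited, 1799 were higher and 674 lower. In Tc1 0 of the 28 were called, where 0.0608% of all genes tested were, and 0 had an unadjusted p under 0.05.

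Ligands and latent TGF-beta genes were 31, of which 14 were tested, with 5 higher and 2 lower in Tc17 STAT3-/- over Tc17 WT cells. Over all genes tested 18.2% were higher and 6.83% lower. The median of the list was 0.05, below the 0.11 of all genes tested. VCAM-1, MAdCAM-1 and fibronectin were not above the filter, so the ligands of α4 are not read here. Lrrc32 encodes GARP, the surface anchor of latent TGF-beta, and it rose by 0.92 ± 0.11 (limma adjusted p = 6.2e-04). Its levels were 10.01, 10.12 and 10.46 in Tc17 STAT3-/- cells, against 9.16, 9.30 and 9.28 in Tc17 WT cells. Adam10, a protease that sheds surface proteins, rose by 0.63 (adjusted p = 0.0016), and Lama5, a laminin chain, fell by 0.57 (adjusted p = 0.0033). Cdh1, E-cadherin, the ligand of αEβ7, was at 5.75, 5.76 and 7.01 in Tc17 STAT3-/- cells and 4.95, 4.81 and 5.35 in Tc17 WT cells, a rise of 1.06 (adjusted p = 0.0073) that the technical arrays widened. Tgfb3 was lower, by -1.14 (adjusted p = 0.0273), a call lost without any one of the 4 Tc17 samples. In Tc17 WT over Tc1 WT cells Nrros, which also anchors latent TGF-beta, was lower (-0.54, adjusted p = 0.0044). The shedding protease Adam17 was lower too (-0.52, adjusted p = 0.0125), while Lgals3, the lectin galectin-3, was higher (0.51, adjusted p = 0.0256). Nrros was called in 23 of 23 alternatives, Adam17 in 21 and Lgals3 in 19.

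**Figure D4:**
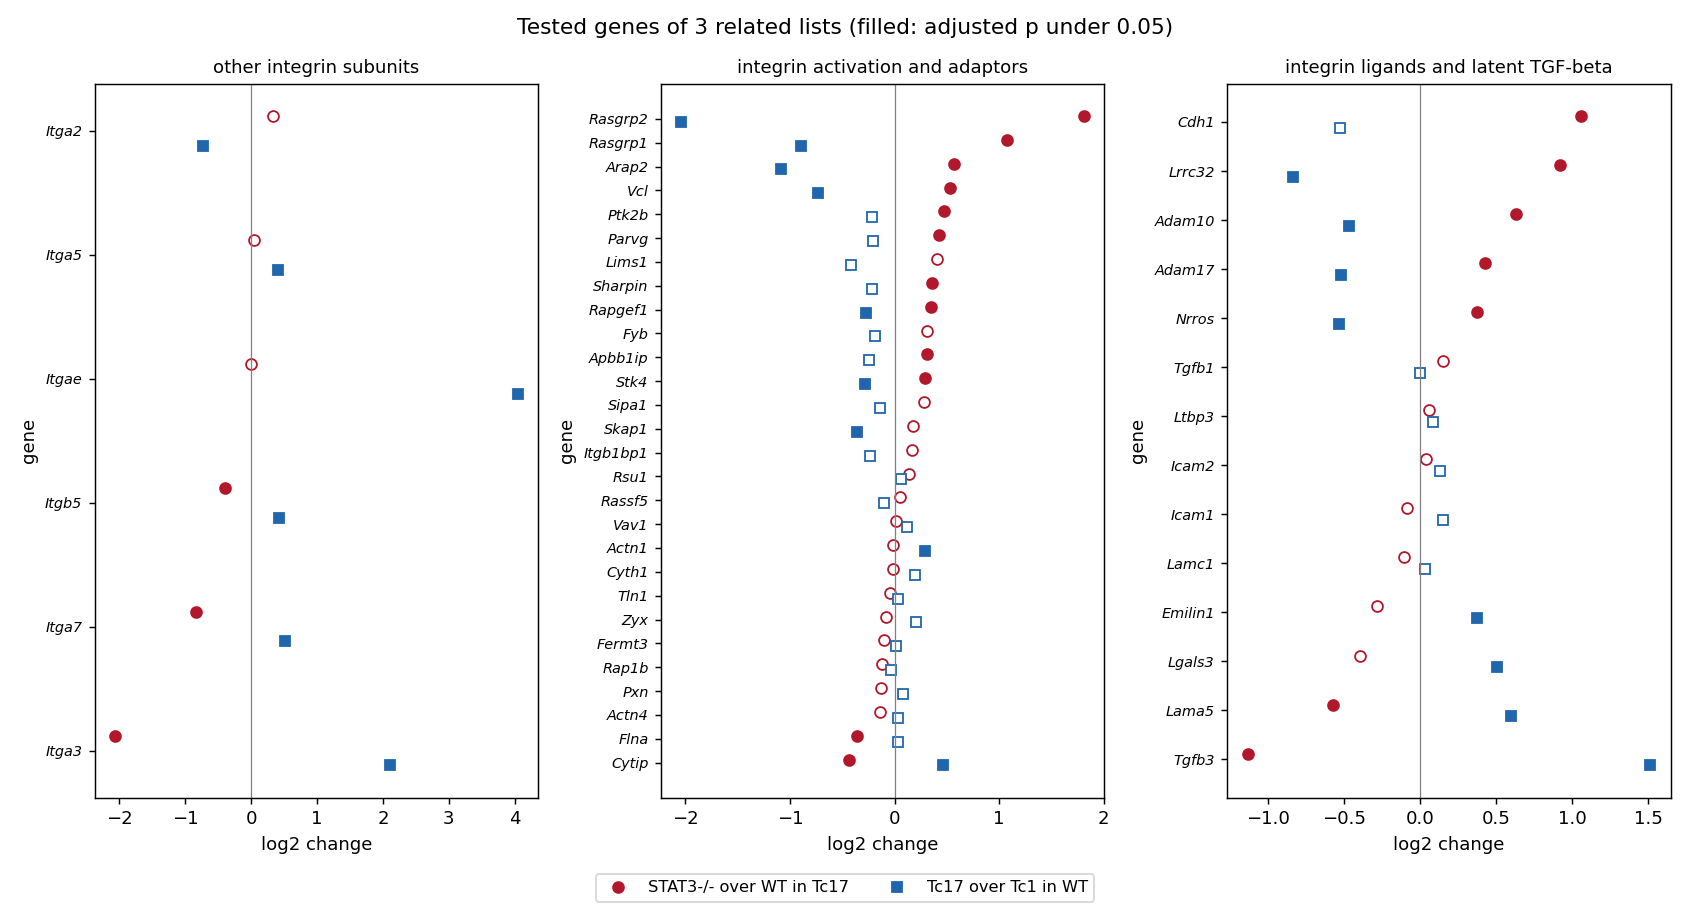
Log2 change (horizontal axis) of the tested genes (vertical axis) of 3 related lists, for STAT3-/- over WT in Tc17 (circles) and Tc17 over Tc1 in WT (squares), filled where the adjusted p is under 0.05. Rasgrp2 (1.81 and -2.04) and Itga3 (-2.07 and 2.11) lie on opposite sides of 0, and the square of Itgae lies furthest right (4.05). For Itga3 and Itgb5 the filter fixed the direction of both changes, and for Itgae and Itga2 that of the squares.

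Genes of other cell types were read beside these results. Of 5 B cell markers on the array, Ighm and Cd79b were above the filter and both were higher in Tc17 STAT3-/- than in Tc17 WT cells, by 1.77 (limma adjusted p = 9.0e-06) and 0.78 (adjusted p = 0.0018), the direction of the 6 integrin genes. With the mean of its probe sets in place of the brightest, the Ighm change was 0.52 (adjusted p = 0.0037), so its size depends on the probe set. Cd79a, Ms4a1 and Pax5 were below 5 in every group and were not higher in Tc17 STAT3-/- than in Tc17 WT cells. Their means were 3.81, 2.37 and 3.97, against 3.89, 2.505 and 3.97. In Tc17 over Tc1 in WT, Ighm again moved in the direction of the 6 integrin genes (-1.35, limma adjusted p = 3.3e-05). Cd79b was not called there (0.07, adjusted p = 0.6935). The mean of the 5 was 5.69 to 5.76 in Tc17 STAT3-/- cells and 5.22 to 5.31 in Tc17 WT cells, against 5.52 to 5.65 in Tc1 STAT3-/- cells and 5.49 to 5.53 in Tc1 WT cells. Their part in the integrin results was not tested. Of 9 myeloid markers Cd68 alone was above the filter, and it was lower in Tc17 STAT3-/- cells (-1.12, adjusted p = 2.4e-04), opposite to the integrin genes. The mean of the 9 was 3.70 to 3.72 in Tc17 STAT3-/- cells and 3.80 to 4.01 in Tc17 WT cells, against 3.87 to 3.93 in Tc1 STAT3-/- cells and 3.79 to 3.88 in Tc1 WT cells. None of the dendritic (5), NK (2) or stromal (5) markers on the array was above the filter. Cd4 and Zbtb7b, the CD4 T cell markers, were above it and not called in any comparison.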

How the data were processed

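The deposited log2 values, 1 per probe set and array, were made by the authors with RMA (background correction, normalization between arrays, summary of probes) and Partek, per the submitters' processing notes, with versions and annotation not given in the sources used here. RMA compresses differences near background. Arrays hold no read depth, and 2 samples per group limit the precision.

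The platform annotation gave a single symbol to 23521 of the 41345 probe sets, more than 1 to 1814 and no symbol to 16010. Of those with a single symbol 23328 matched RefSeq, and 0 were renamed. The probe set with the highest mean was kept for each of 22180 genes. Genes with at least 1 group mean of 5 or more were tested (9862), which removed 12318. The technical array was averaged with biological array 2. SDs of differences between arrays were 0.144 to 0.192 for biological 1 against 2 and 0.209 to 0.352 for biological 2 against technical. For biological 1 against technical they were 0.195 to 0.372. In Tc17 STAT3-/- and Tc1 STAT3-/- cells the technical array was slightly nearer to biological array 1, so these SDs do not show which sample it repeats.

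The fit of group means used R 4.3.3 and limma 3.58.1 (eBayes without trend or robust options, 4 residual and 4.87 prior degrees of freedom), two-sided, for 5 contrasts. A call needs an adjusted p under 0.05 (Benjamini-Hochberg, all tested genes together), and every adjusted p of a gene is from this fit or the named alternative. The data.table package (1.17.8) handled tables, and matplotlib 3.10.9 under Python 3.11.15 the figures. The fit was tested on simulated data. List genes called in a contrast with a change of at least 0.5 were named, at most the 6 largest per list and contrast, with a few others named for their role after their values were seen.

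The members and lists were chosen with earlier results of these data known. A set of 23 alternatives covered the technical arrays, array set and replicate number as blocks, each sample left out, the filter, probe sets, scaling and variance model. Replicate numbers did not establish pairs, and the main fit used none. Deviations from group means correlated at 0.098 to 0.455 between same-numbered samples, and at 4e-04 to 0.172 on biological arrays alone. Both highest values were those of Tc1 STAT3-/- with Tc1 WT cells. For Tc17 STAT3-/- with Tc17 WT cells they were 0.099 and 0.029.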

Additional observations from a re-analysis of the deposited data

Results flagged for a closer look

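The genotype effect on Itga6 was larger in Tc17 than in Tc1 cells by 0.69 on the log2 scale (limma interaction term, adjusted p = 0.0200), which marked it as differing between the culture conditions. Itga6 was at 7.82, 8.01 and 7.80 in Tc17 STAT3-/- cells, against 7.08, 6.97 and 6.86 in Tc17 WT cells, and at 7.90, 7.88 and 7.77 in Tc1 STAT3-/- cells, against 7.73, 7.70 and 7.60 in Tc1 WT cells. The difference was called in 17 of 23 alternatives, with adjusted p between 0.0046 and 0.1039 and a value between 0.54 and 0.77. The test is 1 of 40 made on the members, and the p-values are adjusted over all genes tested.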

How the results depend on the processing

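No called change of a member reversed under any of the 23 alternatives. For STAT3-/- over WT in Tc17, 6 members were called and Itga4 and Itga6 were called in 23 of 23 alternatives, Itgb2 in 21, Itgb1 in 20, Itgal in 17 and Itgb3 in 15. Leaving out 1 sample left between 2 and 6 members called and between 943 and 3191 genes (2473 with all samples): 2 members without either Tc17 STAT3-/- sample, 3 without Tc17 WT sample 2. With 1 sample left in a group, that sample is assumed to vary like the others. For Tc17 over Tc1 in WT, Itga4 and Itga6 were called in 23 alternatives, Itgb1, Itgal and Itgav in 22, Itgb3 in 21 and Itgb2 in 18, with 3 to 7 members and 1100 to 3232 genes (2468 with all) when 1 sample was left out. For the difference of the genotype effects, 1 member was called with all samples, 0 without the dim filter (Itga6 adjusted p = 0.0542), 2 with a trended, robust variance model (Itgb2 added, adjusted p = 0.0425) and 0 to 2 when 1 sample was left out. Genes called were 676, against 384 without the filter, 1246 without technical arrays, 1018 with a replicate block and 244 to 1555 when 1 sample was left out.

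For Tc17 over Tc1 in STAT3-/- cells, 0 members were called with all samples and when any 1 was left out. The count was 1 with the technical array averaged with biological array 1, 2 without technical arrays (Itgb3, and Itgb7 at adjusted p = 0.0335), 1 with the array set as a block and 1 with the replicate block, each time Itgb3. Genes called were 204, against 398 without technical arrays and 65 to 247 when 1 sample was left out. The replicate block changed no other member call. For STAT3-/- over WT in Tc1, 0 members were called under every alternative, with 4 to 17 genes called over all genes tested against 6. Itgb7 was called higher in Tc17 WT than in Tc1 WT cells under cyclic loess (0.34, adjusted p = 0.0292). The shares of called genes that were higher for the difference of the genotype effects were 65.4% as deposited and 42.2% to 73.5% under other scalings. The cause of these shifts was not tested.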

Other observations

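Of 24 other adhesion receptors listed, 20 were tested, and in Tc17 STAT3-/- over Tc17 WT cells 4 were higher and 4 lower, with a median of -0.01 against 0.11 over all genes tested (18.2% higher, 6.83% lower). The split moved with the processing, from 3 to 5 higher and from 2 to 8 lower. It was 3 higher and 7 lower on centring on the tested median, and 4 and 8 without technical arrays. Over all 9862 genes tested, centring called 1085 higher and 1110 lower, and leaving out technical arrays 1707 and 881. The main fit called 1799 and 674. The split also moved when Tc17 STAT3-/- sample 2 was left out. Pecam1, a homophilic adhesion molecule of leukocytes and endothelium, was at 7.12, 7.15 and 6.76 in Tc17 STAT3-/- cells, against 8.29, 8.25 and 8.21 in Tc17 WT cells. Its arrays did not overlap, and the log2 change of -1.22 was called in all 23 alternatives. Cd226, an activating receptor for nectins, was at 6.83, 6.89 and 6.76 in Tc17 STAT3-/- cells, against 5.99, 5.85 and 5.54 in Tc17 WT cells. Cd96, which binds the same ligand family, was at 9.95, 10.06 and 10.14 in Tc17 STAT3-/- cells, above the 9.15 to 9.33 of Tc17 WT cells, and in Tc1 it was at 9.27 to 9.55 in STAT3-/- cells and 9.15 to 9.17 in WT cells. Cd9, a tetraspanin that associates with integrins, was at 6.64, 6.69 and 6.54 in Tc17 STAT3-/- cells, against 5.62, 5.89 and 5.36 in Tc17 WT cells. Sdc4, a heparan sulfate receptor, was lower by -0.83, a call lost without any one of the 4 Tc17 samples. Cd93, a receptor known from endothelium and myeloid cells, was lower by -0.81 (limma adjusted p = 0.0084), lost without Tc17 STAT3-/- sample 2. Crtam, a nectin-like receptor of activated CD8 T cells, was at 5.36, 5.50 and 5.59 in Tc17 STAT3-/- cells, against 6.20, 6.23 and 5.97 in Tc17 WT cells. Between culture conditions in WT, Alcam, a ligand of CD6, was at 6.98, 6.91 and 6.82 in Tc17 cells, against 7.92, 7.89 and 8.12 in Tc1 cells. The hyaluronan receptor Cd44 was at 6.51, 6.36 and 6.05 in Tc17 WT cells, against 5.71, 5.52 and 5.24 in Tc1 WT cells.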
